A study of Mus musculus with 16 samples.

Results

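The genes described here are 9 genes of fatty acid beta-oxidation: Cpt1a, Cpt2, Acadm, Acadl, Acadvl, Hadha, Hadhb, Ehhadh, and Pdk4. They were taken by name from the 24421 rows of the count table, and all 9 passed the filter on low counts (more than 10 counts in at least 4 libraries), which left 14565 genes. RNA-Seq was run on the CD11b+ fraction of brain cells from female C57BL/6J mice that were 3 weeks old when the diets began, with 1 library per mouse. CON mice (n = 4) ate standard chow, MAL mice (n = 5) ate an isocaloric diet low in protein and fat for about a month, and MAL-BG mice (n = 7) ate the same diet and were given 3 oral gavages of a mixture of E. coli and Bacteroidales over 5 days, beginning 2 weeks into the diet. CON and MAL mice were gavaged with PBS over the same days, so gavage itself is shared by all groups. None of the groups analysed here combined the bacteria with standard chow. Cells were enriched with CD11b beads from tissue that the labels call cortical and the Methods call whole cerebra. CD11b is an integrin chain carried by microglia and by other myeloid cells, including neutrophils and monocytes.

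Beta-oxidation shortens fatty acids by a pair of carbons per round and yields acetyl-CoA, NADH, and FADH2. Long-chain fatty acids enter mitochondria bound to carnitine, a step that Cpt1a begins at the outer membrane and Cpt2 completes at the inner membrane. Acyl-CoA dehydrogenases (Acadvl, Acadl, and Acadm, for very long, long, and medium chains) carry out the first reaction of each round, and the trifunctional protein, built from Hadha and Hadhb, carries out the remaining reactions on long chains. Ehhadh catalyses the corresponding middle steps in peroxisomes, and Pdk4 is a kinase that switches off pyruvate dehydrogenase, so that less carbohydrate carbon enters the citric acid cycle when fat is burned. Several of these genes are known targets of the fatty acid sensor PPAR-alpha in liver and muscle.

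A differentially expressed gene (DEG) had to pass an adjusted p of 0.05 and to change by more than 0.58 on the log2 scale. Pdk4 was the only member to do so, in MAL-BG versus CON, where it fell by 1.51, beside 11.4% of all genes that were DEGs higher and 21.7% that were DEGs lower in that comparison. The count of members went from 0 to 2 with 1 library left out and to 9 with scaling by microglia markers. With the latter scaling, 9026 of all 14565 genes were DEGs lower in MAL-BG versus CON. Hadha fell by 0.53 in the same comparison, past the adjusted p but not past the fold change threshold. The other 7 members passed the test in no comparison, and no member did in MAL-BG versus MAL or in MAL versus CON. Within MAL-BG, Hadha and Ehhadh fell into a low range in the same 4 libraries, while Hadhb, the partner of Hadha, did not.

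Library totals were 10312703 to 13461574 counts for CON, 10864121 to 12819982 counts for MAL, and 14191791 to 18705202 counts for MAL-BG, so the MAL-BG libraries were all deeper than the others. Markers of other cells differed as well. All 10 choroid plexus epithelium markers, led by Ttr, were DEGs lower in MAL-BG versus CON. Their summed CPM (counts scaled to library size with TMM factors) ran from 10810 to 41604 among CON libraries, from 5041 to 32768 among MAL libraries, and from 1477 to 13175 among MAL-BG libraries. Of 10 microglia markers, 6 were DEGs higher in MAL-BG versus CON, and the sums were 16801 to 27499 CPM (CON), 17472 to 29780 CPM (MAL), and 36846 to 50302 CPM (MAL-BG). Of 9 neutrophil markers, 8 were DEGs higher in MAL-BG versus CON, all but the most abundant, Csf3r (-0.40, adjusted p = 0.287), and the sums were 481 to 1216 CPM (CON), 518 to 1081 CPM (MAL), and 571 to 13326 CPM (MAL-BG). DEGs lower in MAL-BG versus CON were also found among markers of ependyma (6 of 6), neurons (7 of 8), and astrocytes (5 of 8). Not all other brain cells followed them. Markers of oligodendrocytes (3 of 7) and endothelium (2 of 8) held DEGs higher and 0 lower, while mural cells held 2 of 8 lower. MAL-BG replicate 3 had the highest choroid plexus sum of its group and MAL-BG replicate 5 the highest neutrophil sum. No marker of the choroid plexus, microglia, and neutrophil lists was at 0 throughout a group. In such bulk samples, fewer cells of a type and less RNA per cell cannot be told apart, and the part that these cells play in the results below was not tested.

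Because so many genes differed, the scaling of libraries matters. Over all genes, the median difference between MAL-BG and CON was -0.04 (log2) with TMM scaling, -0.17 with no scaling factor, 0.25 with scaling by the mean log2 CPM, and -0.86 with scaling by the microglia markers. Of DEGs in that comparison, 34.4% were higher in MAL-BG with TMM scaling, 22.4% with no factor, 61.4% with the mean log2 CPM, and 0.77% with the microglia markers. In MAL-BG versus MAL the corresponding shares were 33.4%, 20.1%, 62.2%, and 1.07%. Fold changes of the members are therefore also given relative to the median of all genes. These relative values varied little over these scalings, DESeq2 size factors, and the upper quartile (6 scalings in all). A scaling factor shifts all genes of a library together, so this steadiness follows largely from the subtraction and is no test of a member.

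Promoter windows of RefSeq genes on GRCm38.p6 were available for 9 of 9 members, each 300 bases long (250 before and 50 after the annotated start). The windows of 4 members are printed because the results below turn on them. Hadha and Hadhb are transcribed away from each other, from RefSeq starts 273 bases apart on chromosome 5, and their windows share chr5:30155003-30155230 (228 bases) on opposite strands. Ehhadh varied with Hadha over the libraries, and Pdk4 was the only DEG. Each is written 5′ to 3′ on the strand of its gene, and capitals mark matches to any of 7 motifs searched on both strands.
Hadha, chr5:30154931-30155230, minus strand: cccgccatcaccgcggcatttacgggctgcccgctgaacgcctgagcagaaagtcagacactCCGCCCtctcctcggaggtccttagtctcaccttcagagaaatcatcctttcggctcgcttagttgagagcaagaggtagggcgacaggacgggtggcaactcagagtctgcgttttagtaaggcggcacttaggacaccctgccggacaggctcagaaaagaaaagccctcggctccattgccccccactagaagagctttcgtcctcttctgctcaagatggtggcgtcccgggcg
Hadhb, chr5:30155003-30155302, plus strand: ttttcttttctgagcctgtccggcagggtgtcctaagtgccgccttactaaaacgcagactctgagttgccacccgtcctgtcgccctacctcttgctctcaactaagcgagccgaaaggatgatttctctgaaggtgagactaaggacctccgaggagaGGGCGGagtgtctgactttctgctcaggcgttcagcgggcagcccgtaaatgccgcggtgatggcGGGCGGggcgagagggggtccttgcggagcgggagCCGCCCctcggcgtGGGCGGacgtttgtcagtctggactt
Ehhadh, chr16:21787785-21788084, minus strand: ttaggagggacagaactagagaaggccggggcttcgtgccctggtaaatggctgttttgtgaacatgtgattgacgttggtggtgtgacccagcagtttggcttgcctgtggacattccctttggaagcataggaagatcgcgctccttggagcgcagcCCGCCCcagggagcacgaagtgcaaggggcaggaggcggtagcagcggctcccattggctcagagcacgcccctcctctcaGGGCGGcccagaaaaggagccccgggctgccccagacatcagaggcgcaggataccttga
Pdk4, chr6:5496229-5496528, minus strand: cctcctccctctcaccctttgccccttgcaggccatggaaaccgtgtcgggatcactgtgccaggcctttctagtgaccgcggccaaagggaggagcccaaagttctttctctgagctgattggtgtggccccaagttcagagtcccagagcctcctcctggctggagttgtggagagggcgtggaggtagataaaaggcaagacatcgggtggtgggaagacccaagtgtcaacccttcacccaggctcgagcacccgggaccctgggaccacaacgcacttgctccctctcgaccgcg

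All capitals in these windows are GC boxes (GGGCGG). There was 1 such match in the Hadha window, which lies in the stretch shared with Hadhb, 4 in the Hadhb window, 2 in the Ehhadh window, and none in the Pdk4 window. GC boxes were found in 6 of the 9 windows of members and in 35.7% of 32851 RefSeq promoter windows. The hexamer AGGTCA, the core of many nuclear receptor elements, was found in the windows of Cpt1a, Acadvl, and Acadm, at positions -94, -87, and -249 from the start, and in 16.3% of all windows. A direct repeat of that hexamer with 1 base between the copies (DR1, the form bound by PPAR-RXR) was in 0 of 9 windows and in 0.0396% of all windows. The ERR motif TCAAGGTCA (which contains the hexamer, 0.423% of all windows), the FOXO motif TGTTTAC (3.65%), the cAMP response element TGACGTCA (1.79%), and the CLEAR motif TCACGTGA (0.974%) were likewise in 0 of 9 windows. These are matches of letters in a short window and say nothing of binding or of elements elsewhere.

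Levels between genes were compared per length, as CPM per kilobase of mRNA (the longest principal transcript of GENCODE vM21). In CON, Acadvl was the most abundant member at 49.1 ± 7.3 CPM per kilobase (mean ± SD, n = 4), followed by Acadm at 46.1 ± 4.6, Acadl at 39.3 ± 10.03, and Hadha at 37.3 ± 4.0. Cpt1a was at 23.5 ± 4.0, Hadhb at 17.1 ± 5.1, and Cpt2 at 11.9 ± 2.7 CPM per kilobase. Pdk4 (3.8 ± 2.1) and Ehhadh (2.7 ± 0.25) were the least abundant. Neighbours whose order was not the same in every CON library were Acadvl and Acadm (3 of 4 libraries), Acadl and Hadha (3 of 4), and Pdk4 and Ehhadh (3 of 4), so these pairs did not differ beyond their spread. The order in MAL was the same except for the last places, where Ehhadh exceeded Pdk4 in 2 of 5 libraries. In MAL-BG, Acadm lay above Acadvl in 7 of 7 libraries, at 46.3 ± 4.5 and 40.1 ± 3.1 CPM per kilobase (n = 7), followed by Acadl (32.5 ± 4.2), Hadha (25.9 ± 8.5), Hadhb (18.6 ± 2.7), and Cpt1a (17.7 ± 2.8). Acadl exceeded Hadha, Hadha exceeded Hadhb, and Hadhb exceeded Cpt1a in only 4 of 7 libraries each, so these neighbours did not differ beyond their spread.

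**Figure D1:**
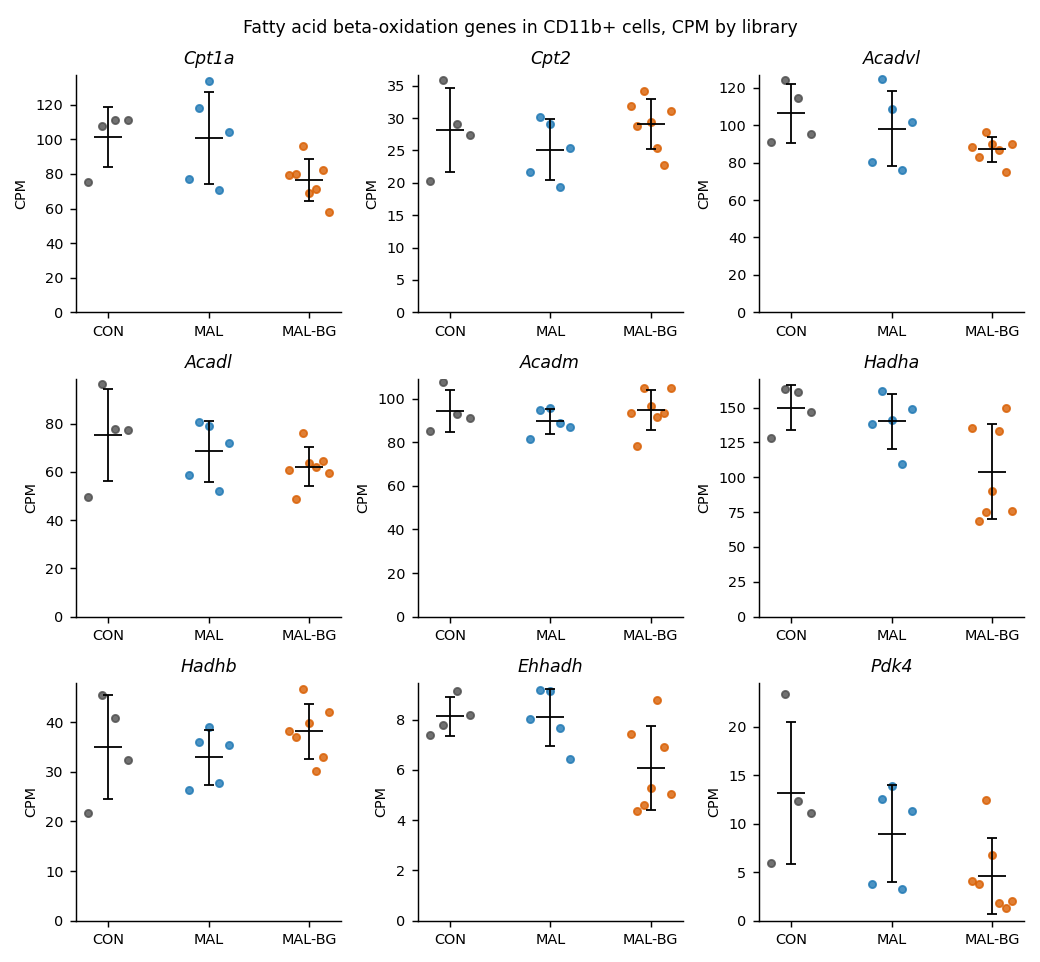
Level of each member in every library (points, in CPM) with the mean and SD of each group (black bars), for CON (n = 4), MAL (n = 5), and MAL-BG (n = 7). The groups overlap for all 9 genes, and in MAL-BG the points of Hadha lie in 2 ranges, 68.7 to 90.0 CPM and 133 to 149.6 CPM.

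MAL-BG was compared with CON to ask what diet and bacteria do together. Over all 14565 genes tested, 11.4% were DEGs higher in MAL-BG and 21.7% were DEGs lower, and 19.8% were higher and 25.2% lower by the adjusted p alone. Among the 9 members, 0 were DEGs higher and 1 was a DEG lower, and 0 were higher and 2 lower by the adjusted p (quasi-likelihood test of edgeR, adjusted over all genes by Benjamini-Hochberg), with 4 at an unadjusted p under 0.05. By DESeq2 there was also 1 DEG, with 2 members past the adjusted p. The members had a median difference of -0.29 and all genes one of -0.04 (log2). Without MAL-BG replicates 3 and 5, a choice made after the data were seen, 1 member was a DEG. The count was 0 without CON replicate 2, CON replicate 3, or MAL-BG replicates 1, 2, or 7, and 2 without CON replicate 1 or MAL-BG replicates 5 or 6. With scaling by the microglia markers, 9 of 9 members were DEGs lower in MAL-BG, beside 9026 of all 14565 genes. With scaling by the mean log2 CPM, 3 members passed the adjusted p as higher (Cpt2, Acadm, and Hadhb, at 0.30 to 0.42) and 1 as lower (Pdk4).

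MAL-BG was compared with MAL to ask what the bacteria add to the diet. Of all genes, 10.2% were DEGs higher and 20.2% DEGs lower in MAL-BG, and 20.2% were higher and 24.1% lower by the adjusted p alone. Among members, 0 were DEGs and 0 passed the adjusted p by edgeR, with 3 (Cpt1a, Hadha, and Ehhadh) at an unadjusted p under 0.05, and DESeq2 likewise called 0. The smallest adjusted p was 0.0547, for Cpt1a. The median was -0.17 for the members and -0.03 for all genes. Without MAL-BG replicate 3, Pdk4 was a DEG (log2 fold change -1.43, adjusted p = 0.0215). With scaling by the microglia markers, 7 members were DEGs lower, beside 8058 of all 14565 genes. With scaling by the mean log2 CPM, Cpt2, Acadm, and Hadhb passed the adjusted p as higher, at 0.35 to 0.48.

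MAL was compared with CON to ask what the diet does alone. Of all genes, 0% passed the adjusted p in either direction by edgeR (212 genes at an unadjusted p under 0.05), and DESeq2 called 0 DEGs. None of the 9 members passed the adjusted p, and 0 had an unadjusted p under 0.05. The log2 fold changes of the members ran from -0.55 for Pdk4 to -0.01 for Ehhadh, with standard errors of 0.10 to 0.60. The 95% intervals ranged from -0.29 to 0.14 for Acadm, the narrowest, and from -1.81 to 0.70 for Pdk4, the widest, so differences inside these intervals were not excluded. The comparisons of MAL-BG with CON and with MAL share the MAL-BG libraries and are given side by side below.

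**Figure D2:**
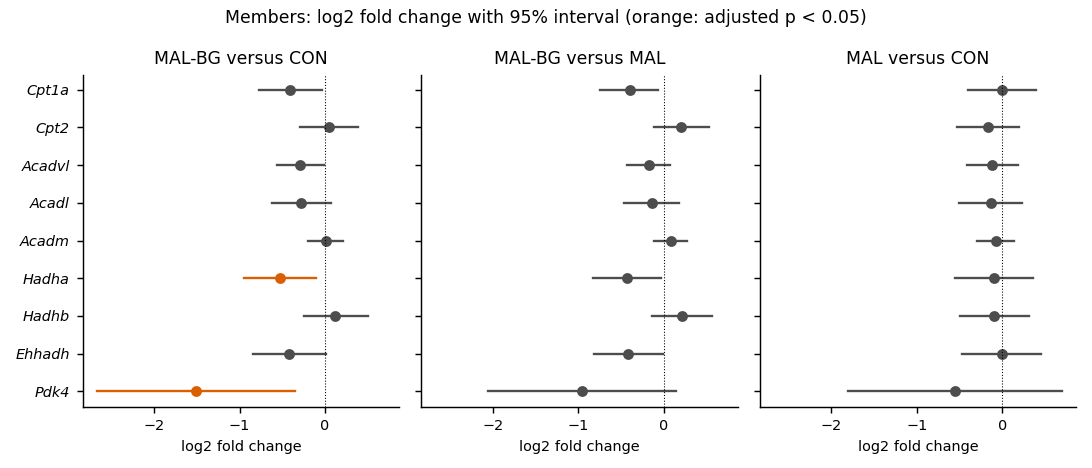
Log2 fold change of each member (point) with its 95% interval (line) in the 3 comparisons, on a common horizontal axis, with orange where the adjusted p is under 0.05. Hadha and Pdk4 in MAL-BG versus CON are the only orange points, and the interval of Pdk4 is the widest in each panel.

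Cpt1a (chromosome 19, 3322334 to 3385733, plus strand) encodes the carnitine palmitoyltransferase of the outer mitochondrial membrane, the step at which malonyl-CoA restrains fatty acid entry. Its level was 75.6, 108, 111, and 111 CPM in the CON libraries and 77.0, 118, 134, 70.9, and 104 CPM in the MAL libraries. In MAL-BG the lowest was 57.8, the median 79.1, and the highest 96.2 CPM. The MAL-BG values thus lay within or below the CON and MAL ranges, and the groups overlapped. The log2 fold change was -0.41 (SE 0.17, adjusted p = 0.0643) against CON and -0.40 (SE 0.16, adjusted p = 0.0547) against MAL, and relative to the median of all genes it stayed between -0.38 and -0.36 against CON over the 6 scalings. Without CON replicate 1, the low CON library, the difference from CON passed the test (-0.52, adjusted p = 0.0222), as it did without MAL replicate 4 (adjusted p = 0.0458), without MAL-BG replicate 3 (0.0348), with no scaling factor (0.0347), and with only both groups compared in the fit (0.0382). Against MAL it passed without CON replicate 1, MAL replicate 1, MAL replicate 4, or MAL-BG replicate 3, with adjusted p from 0.0161 to 0.0405, and with the upper quartile (0.0444), no scaling factor (0.0265), or libraries thinned to equal depth (0.0439). The difference shrank to -0.11 against CON (adjusted p = 0.578) and -0.12 against MAL (0.498) with scaling by the mean log2 CPM.

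Cpt2 (chromosome 4, 107903981 to 107923610, minus strand), which releases the acyl group from carnitine inside the mitochondrion, did not follow Cpt1a. It was at 20.3, 35.9, 29.1, and 27.4 CPM in CON, at 21.6, 30.2, 29.1, 19.4, and 25.4 CPM in MAL, and at 22.8 to 34.3 CPM (median 29.3) in MAL-BG. These ranges overlap almost wholly. Against CON the log2 fold change was 0.05, with a 95% interval from -0.29 to 0.39, and its sign turned with no scaling factor (-0.09), with scaling by the microglia markers (-0.79), and without CON replicate 1 (-0.08).

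Of the 7 genes of the carnitine shuttle list that were tested, Cpt1a and Cpt2 included, 2 were DEGs lower against CON and none was higher, beside 21.7% lower and 11.4% higher among all genes. Cpt1c, the brain isoform of the endoplasmic reticulum, fell by 1.62 (SE 0.38, adjusted p = 0.00276), from 16.7 ± 7.1 CPM in CON to 5.4 ± 2.5 CPM in MAL-BG, and by 1.18 against MAL (adjusted p = 0.0148). Slc22a5, the plasma membrane carnitine transporter, fell by 0.63 (SE 0.13, adjusted p = 0.00131), from 29.1 ± 2.9 to 18.8 ± 2.0 CPM, with 7 of 7 MAL-BG libraries below all CON libraries. Slc25a20, the mitochondrial carnitine-acylcarnitine carrier (0.10), and the carnitine acyltransferases Crat (0.09) and Crot (-0.01) did not pass the test. Cpt1b, the muscle isoform, had 39 counts over all 16 libraries and was not tested.

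The 3 acyl-CoA dehydrogenases among the members did not pass the test in any comparison. Acadvl (chromosome 11, 70010183 to 70015411, minus strand) was at 91.1, 124, 115, and 95.5 CPM in CON, at 80.5, 125, 109, 75.9, and 101 CPM in MAL, and at 75.0 to 96.2 CPM (median 88.5) in MAL-BG. In MAL-BG, 6 of 7 libraries lay below every CON library and replicate 3 lay inside the CON range, with a log2 fold change against CON of -0.29 (SE 0.13, adjusted p = 0.0799) that became 0.002 with scaling by the mean log2 CPM. Exons of Acadvl share 1151 bases with Dvl2 on the opposite strand, and since the strand setting of the counting is not given in the sources used here, reads of the 2 genes may not be separated. Without CON replicate 1, Acadvl (-0.36, adjusted p = 0.0431) and Acadl (-0.43, adjusted p = 0.0229) passed the test against CON, and so did Acadvl with no scaling factor (adjusted p = 0.028) and with only both groups compared (0.0431).

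Acadl (chromosome 1, 66830839 to 66863277, minus strand) was at 49.7, 96.3, 77.9, and 77.4 CPM in CON, at 58.8, 80.6, 78.9, 51.9, and 72.1 CPM in MAL, and at 48.7 to 76.0 CPM (median 61.9) in MAL-BG. Its log2 fold change against CON was -0.28 (95% interval -0.62 to 0.07), which became 0.03 with scaling by the mean log2 CPM. Acadm (chromosome 3, 153922357 to 153944632, minus strand) was the steadiest member. It was at 85.5, 108, 93.2, and 91.4 CPM in CON, at 81.7, 95.03, 95.8, 88.9, and 86.9 CPM in MAL, and at 78.3 to 105 CPM (median 93.6) in MAL-BG. The difference between MAL-BG and CON was 0.01 (SE 0.10), with an interval from -0.20 to 0.21 on the log2 scale, and its sign changed with several settings.

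Hadha and Hadhb encode the alpha and beta chains of the trifunctional protein, which are assembled in equal numbers, and the genes lie head to head on chromosome 5 (Hadha 30118304 to 30155162, minus strand, and Hadhb 30155248 to 30184593, plus strand). Hadha carries the hydratase and dehydrogenase activities and Hadhb the thiolase. Hadha was at 129, 163, 161, and 147 CPM in CON and at 138, 162, 141, 109.5, and 149 CPM in MAL. In the MAL-BG libraries, in the order of their numbers, it was at 136, 68.7, 75.2, 90.0, 133, 149.6, and 75.9 CPM. MAL-BG replicates 2, 3, 4, and 7 thus lay below all CON and MAL libraries, while replicates 1, 5, and 6 lay within the CON range. The mean was 149.85 ± 16.02 CPM in CON (n = 4), 140.1 ± 19.4 CPM in MAL (n = 5), and 104 ± 34 CPM in MAL-BG (n = 7).

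Hadha fell by 0.53 against CON (SE 0.20, 95% interval -0.95 to -0.10, edgeR adjusted p = 0.0411), and its difference of -0.43 from MAL did not pass the test (SE 0.19, adjusted p = 0.0736). Relative to the median of all genes, the difference from CON stayed between -0.55 and -0.47 over the 6 scalings. The call against CON was lost with scaling by the mean log2 CPM (adjusted p = 0.39), with no filter on low counts (0.0547), with only both groups compared in the fit (0.079), and without CON replicate 2 (0.103), CON replicate 3 (0.0975), CON replicate 4 (0.0711), MAL-BG replicate 2 (0.137), MAL-BG replicate 3 (0.0664), MAL-BG replicate 4 (0.13), or MAL-BG replicate 7 (0.143). Against MAL the test was passed with no scaling factor (adjusted p = 0.0338) and without MAL replicate 4 (0.046), MAL-BG replicate 5 (0.0489), or MAL-BG replicate 6 (0.0203). Hadha shares 75 exon bases with Garem2 on the opposite strand, a gene that is not analysed here.

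Hadhb was at 21.7, 45.5, 40.8, and 32.4 CPM in CON, at 26.3, 36.0, 39.1, 27.7, and 35.4 CPM in MAL, and, in the order of the libraries, at 38.2, 37.1, 46.7, 39.9, 30.1, 33.0, and 42.1 CPM in MAL-BG. The MAL-BG replicates that were lowest for Hadha were not low for Hadhb. Its log2 fold change was 0.12 (SE 0.18, adjusted p = 0.602) against CON and 0.21 (SE 0.17, adjusted p = 0.31) against MAL. Its sign against CON turned with no scaling factor (-0.02), with scaling by the microglia markers (-0.72), and without CON replicate 1 (-0.05).

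The ratio of Hadha to Hadhb counts does not depend on the scaling of libraries. It was 5.94, 3.59, 3.95, and 4.52 in CON and 5.26, 4.50, 3.61, 3.95, and 4.22 in MAL. In MAL-BG it was 3.55, 1.85, 1.61, 2.26, 4.42, 4.54, and 1.80, so that replicates 2, 3, 4, and 7 lay far below every CON and MAL library, replicate 1 lay just below the lowest of them (3.59), and replicates 5 and 6 lay within their range. The mean ratio was 4.50 ± 1.03 (CON), 4.31 ± 0.62 (MAL), and 2.86 ± 1.28 (MAL-BG). Per kilobase of mRNA, the 4 low libraries had 0.82 to 1.15 Hadha reads per Hadhb read, and the other 12 libraries had 1.81 to 3.03.

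**Figure D3:**
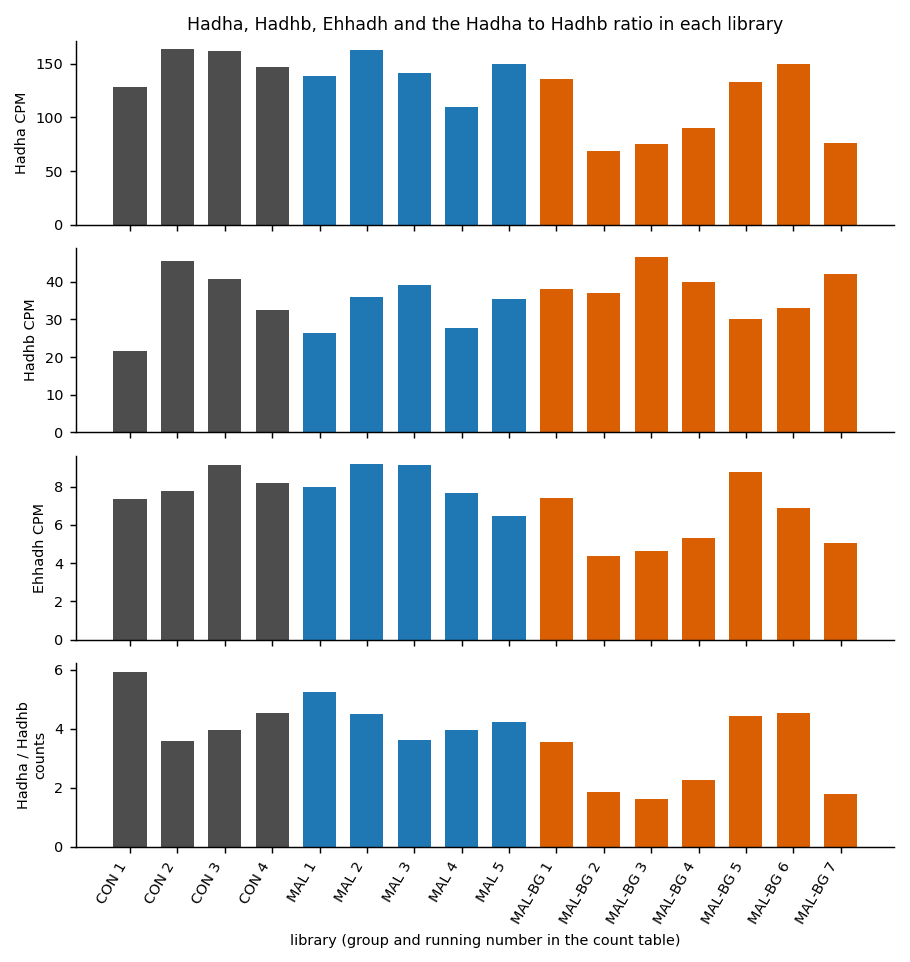
Levels of Hadha, Hadhb, and Ehhadh in CPM, and the ratio of Hadha to Hadhb counts, in each of the 16 libraries (bars, grey CON, blue MAL, orange MAL-BG). MAL-BG replicates 2, 3, 4, and 7 are low for Hadha (68.7 to 90.0 CPM), Ehhadh (4.37 to 5.29 CPM), and the ratio (1.61 to 2.26), and not for Hadhb (37.1 to 46.7 CPM).

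Ehhadh (chromosome 16, 21761287 to 21787807, minus strand) had few counts, 57 to 162 per library. It was at 7.37, 7.79, 9.14, and 8.18 CPM in CON and at 8.002, 9.18, 9.12, 7.66, and 6.45 CPM in MAL. In MAL-BG, in the order of the libraries, it was at 7.43, 4.37, 4.62, 5.29, 8.79, 6.89, and 5.05 CPM. Replicates 2, 3, 4, and 7 again lay below every CON and MAL library. The log2 fold change was -0.42 (SE 0.20, adjusted p = 0.1) against CON and -0.41 (SE 0.19, adjusted p = 0.0871) against MAL, and without MAL-BG replicate 5 it passed the test in both (-0.55, adjusted p = 0.0307, and -0.53, adjusted p = 0.0266), as it did with no scaling factor (0.0472 and 0.0367). Scaling by the mean log2 CPM shrank the difference to -0.12 against CON (adjusted p = 0.647) and -0.14 against MAL (0.571).

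After the group means were subtracted, Hadha and Ehhadh varied together over the 16 libraries (Pearson r = 0.82), while Hadha and Hadhb did not (r = -0.05). These correlations are descriptions of 16 libraries that share their depth and cell composition, with no test. The low and high MAL-BG libraries for Hadha did not follow the choroid plexus or microglia sums. The low libraries included those with the lowest (1477 CPM, replicate 2) and the highest (13175 CPM, replicate 3) choroid plexus sums of the group, and their microglia sums of 36846 to 48658 CPM overlapped the 36941 to 50302 CPM of the other 3 libraries. The neutrophil sum of the low libraries was 571 to 3255 CPM, and that of the others was 895 to 13326 CPM. Library totals did separate the 2 ranges, at 14191791 to 16863746 counts in the low libraries and 17323278 to 18705202 counts in the others. The part of depth in this split was not tested. The code of the study holds a batch term, but no source used here names the batch of a library, so values within batches could not be given and the part of a batch in these 2 ranges was not tested.

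Pdk4 (chromosome 6, 5483351 to 5496309, minus strand), induced by fasting in many tissues, had the largest fold change of the members. It was at 5.99, 23.4, 12.3, and 11.1 CPM in CON, at 3.83, 12.5, 13.9, 3.30, and 11.3 CPM in MAL, and at 4.13, 3.83, 12.4, 6.79, 1.84, 1.31, and 2.08 CPM in the MAL-BG libraries. In all, 5 of 7 MAL-BG libraries lay below every CON library, but replicate 3 and replicate 4 lay inside the CON range, and MAL replicates 1 and 4 were as low as MAL-BG replicates 1 and 2. Pdk4 fell by 1.51 against CON, to 35.1% of the CON level (SE 0.55, 95% interval -2.67 to -0.35, edgeR adjusted p = 0.0333). Against MAL the difference was -0.96 (SE 0.52, adjusted p = 0.145), and between MAL and CON it was -0.55 (SE 0.60, adjusted p = 0.999).

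Relative to the median of all genes, the difference of Pdk4 from CON was -1.49 to -1.41 over the 6 scalings. The call was lost without CON replicate 2 (-1.09, adjusted p = 0.159), which was the highest library, and without CON replicate 3 (adjusted p = 0.0566), MAL-BG replicate 1 (0.0592), MAL-BG replicate 2 (0.0622), or MAL-BG replicate 7 (0.0679). Without MAL-BG replicates 3 and 5, Pdk4 was lower against CON (-1.87, adjusted p = 0.00833) and against MAL (-1.32, adjusted p = 0.0411).

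The level of Pdk4 moved with the markers of choroid plexus epithelium, the secretory tissue that makes cerebrospinal fluid. CON replicate 1, with the lowest Pdk4 of its group, had the lowest choroid plexus sum (10810 CPM), and CON replicate 2, with the highest Pdk4, had the highest sum (41604 CPM). MAL replicates 1 and 4, the low libraries for Pdk4, had sums of 9732 and 5041 CPM, against 23929 to 32768 CPM in the other MAL libraries, and MAL-BG replicate 3 had both the highest Pdk4 and the highest sum of its group (13175 CPM). MAL-BG replicate 2 departed from this order, with the lowest sum of all 16 libraries (1477 CPM) and Pdk4 at the group median (3.83 CPM), above replicates 5, 6, and 7, whose sums were 2741 to 4141 CPM. With the group means subtracted, the Pearson r between log2 values was 0.83 and Spearman's rho 0.84 (n = 16), and r was 0.74 without the 2 libraries farthest from the median sum.

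The same description gave r of 0.87 for Acadl, 0.83 for Cpt2, 0.83 for Acadvl, 0.76 for Hadhb, 0.74 for Acadm, and 0.69 for Cpt1a, against 0.20 for Hadha and 0.04 for Ehhadh. The part of these cells in the level of each member was not tested. With the summed microglia markers, r was negative for 9 of 9 members, from -0.78 for Cpt1a and Acadl to -0.19 for Ehhadh. With the neutrophil markers, r lay between -0.55 for Pdk4 and 0.31 for Ehhadh, and without the 2 libraries farthest from the median sum it went from 0.01 to -0.72 for Hadha and from 0.31 to -0.53 for Ehhadh. In CON and MAL, most of the neutrophil sum was Csf3r, the marker that did not rise. Its mean was 604 CPM in CON (sums 481 to 1216) and 589 CPM in MAL (sums 518 to 1081). The sum in CON and MAL thus reflects mainly this gene. No r was computed without it or for these libraries alone, and the part of neutrophils in r was not tested.

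**Figure D4:**
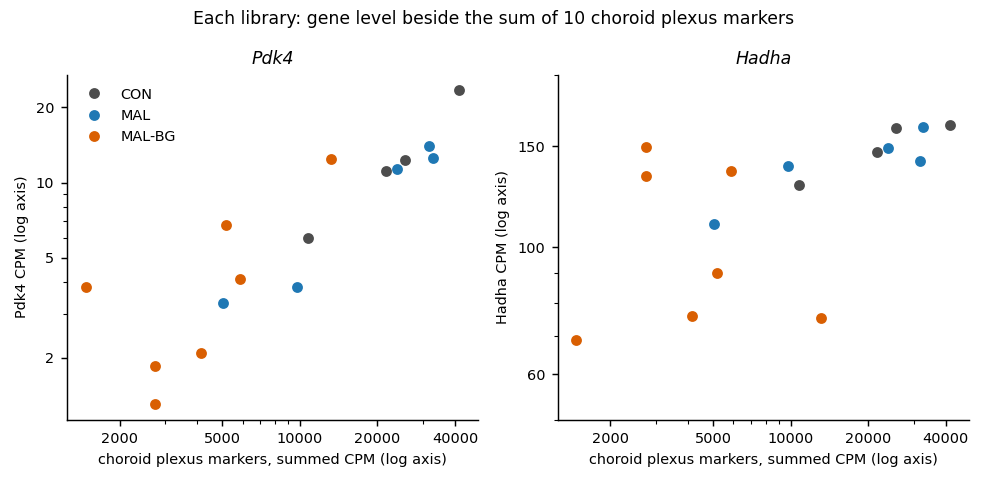
Level of Pdk4 (left) and of Hadha (right) in CPM against the summed CPM of 10 choroid plexus markers, both on log axes, with each point 1 library. Pdk4 spans 1.31 to 23.4 CPM and tends to be higher at higher marker sums, with MAL-BG replicate 2 (3.83 CPM at the lowest sum) apart from that order, while the MAL-BG points of Hadha split into 2 ranges at like marker sums.

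Per length, Pdk4 was the least abundant of the 4 pyruvate dehydrogenase kinases. CON libraries held 25.1 ± 4.5 CPM per kilobase of Pdk1, 18.95 ± 5.53 of Pdk2, 8.14 ± 1.79 of Pdk3, and 3.8 ± 2.1 of Pdk4, and MAL-BG libraries held 26.3 ± 3.3, 10.9 ± 2.3, 7.47 ± 1.74, and 1.3 ± 1.1. As a share of the counts on all 4 genes, which does not depend on scaling, Pdk4 went from 6.40% ± 3.12 in CON to 4.61% ± 2.67 in MAL and 2.70% ± 2.51 in MAL-BG. Pdk2 fell by 0.80 against CON (SE 0.22, adjusted p = 0.00688), while Pdk1 (0.07) and Pdk3 (-0.12) did not pass the test. Of the 13 genes of the pyruvate dehydrogenase list, 3 were DEGs lower and 0 higher against CON, beside 21.7% lower and 11.4% higher among all genes. Besides Pdk4 and Pdk2, the remaining DEG was Pdha1, the catalytic subunit that these kinases phosphorylate (-0.68, SE 0.17, adjusted p = 0.00384), which was named after its value was seen.

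The wider pathway was described with 8 lists of 115 genes, 108 of which were tested. Against CON, 10 were DEGs higher and 25 DEGs lower in MAL-BG, with a median of -0.10, beside shares of 11.4% and 21.7% among all genes. By the adjusted p, 19 were higher and 32 lower, beside 19.8% and 25.2% of all genes. Against MAL, 9 were DEGs higher and 22 lower (10.2% and 20.2% of all genes), with a median of -0.05. Between MAL and CON, 0 passed the adjusted p and 0 had an unadjusted p under 0.05 by edgeR, while DESeq2 called 0. Without MAL-BG replicates 3 and 5, the DEGs numbered 38 against CON and 36 against MAL.

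Among 22 mitochondrial beta-oxidation enzymes, 1 was a DEG higher and 4 were DEGs lower against CON (11.4% and 21.7% of all genes). Their median was -0.24. Acaa2, the mitochondrial thiolase, fell by 0.98 (SE 0.26, adjusted p = 0.0061), from 83.7 ± 29.2 CPM in CON to 42.5 ± 8.3 CPM in MAL-BG. Acad11, a dehydrogenase of long and very long chains, fell by 0.93 (adjusted p = 0.00449), and Eci1, an isomerase for unsaturated chains, by 0.59 (adjusted p = 0.0339). The remaining DEG that fell was Etfa, a subunit of the electron acceptor of these dehydrogenases (-0.74, adjusted p = 0.00821), named after its value was seen. Acads, the short-chain dehydrogenase, rose by 0.585 (SE 0.13, adjusted p = 0.00184), from 70.7 ± 7.5 to 106 ± 15 CPM, whereas Hadh, the short-chain hydroxyacyl-CoA dehydrogenase, was at 0.13 and did not pass the test.

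Among 19 peroxisomal genes tested, 2 were DEGs higher and 2 lower against CON (11.4% and 21.7% of all genes). Their median was 0.10. Acox2, the oxidase of branched chains and bile acid precursors, fell by 2.33 (adjusted p = 0.00755) at a mean of 0.81 CPM in MAL-BG. Acaa1a, the peroxisomal thiolase, rose by 0.76 (adjusted p = 0.00181), and Pecr, a peroxisomal enoyl-CoA reductase, rose by 0.67 (adjusted p = 0.00286), with all MAL-BG libraries above all CON libraries. Hsd17b4, the D-bifunctional enzyme that parallels Ehhadh, was at 116 ± 12 CPM in CON and 143 ± 35 CPM in MAL-BG (0.30, adjusted p = 0.128).

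Of 12 genes of fatty acid uptake, binding, and activation, 2 were DEGs higher and 5 lower against CON (11.4% and 21.7% of all genes). Their median was -0.29. Slc27a4, a fatty acid transporter with acyl-CoA synthetase activity, rose by 1.15 (SE 0.18, adjusted p = 0.000152), from 35.3 ± 6.6 to 78.4 ± 19.9 CPM, and Acsl5, an acyl-CoA synthetase, rose by 0.78 (SE 0.11, adjusted p = 7.78e-05), from 83.6 ± 10.4 to 143 ± 11 CPM. In both genes 7 of 7 MAL-BG libraries lay above every CON and MAL library. Acsl6, the synthetase abundant in neurons and astrocytes, fell by 2.84 (SE 0.41, adjusted p = 8.77e-05), Fabp5, a fatty acid binding protein, by 1.21 (adjusted p = 0.000633), and Slc27a1, a fatty acid transporter, by 1.01 (adjusted p = 0.00051). The other DEGs that fell, Fabp3 (-1.82, adjusted p = 0.0184) and Dbi (-0.96, adjusted p = 0.00389), carriers of fatty acids and of acyl-CoA, were named after their values were seen. Markers of neurons (7 of 8 DEGs lower) and of astrocytes (5 of 8 DEGs lower) moved in the same direction as Acsl6, and their part in its level was not tested.

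Of 9 genes of lipid droplet lipolysis, 3 were DEGs higher and 0 lower against CON (11.4% and 21.7% of all genes). By the adjusted p, 5 were higher and 0 lower (19.8% and 25.2% of all genes). Their median was 0.50, and the counts against MAL were the same. Lpl, which releases fatty acids from circulating lipoproteins, rose by 1.16 (SE 0.20, adjusted p = 0.000319), from 43.6 ± 6.2 to 97.5 ± 17.3 CPM, with all MAL-BG libraries above all others. Mgll, the monoacylglycerol lipase, rose by 0.76 (adjusted p = 0.00478), and G0s2, an inhibitor of the triglyceride lipase Pnpla2, rose by 1.62 (adjusted p = 0.0106), with MAL-BG libraries from 4.75 to 47.7 CPM. With scaling by the microglia markers, the median of all genes moved to -0.86, so that the rises here are relative to the other genes of the library.

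Of 18 regulators, 2 were DEGs higher and 6 lower against CON (11.4% and 21.7% of all genes). By the adjusted p, 5 were higher and 6 lower (19.8% and 25.2% of all genes). Their median was 0.24. Ppara, which encodes PPAR-alpha, fell by 1.54 (SE 0.54, adjusted p = 0.0276), from 4.19 ± 2.08 to 1.44 ± 1.25 CPM, and its coactivator Ppargc1a fell by 1.77 (adjusted p = 0.0119). Ppard, which encodes PPAR-delta, was the most abundant of the PPAR genes per length in CON (20.8 ± 3.3 CPM per kilobase, against 1.23 ± 0.61 for Ppara and 1.76 ± 0.67 for Pparg). It rose by 0.47 (SE 0.11, adjusted p = 0.00312), from 68.2 ± 10.7 CPM in CON to 94.5 ± 8.5 CPM in MAL-BG, past the adjusted p but not the fold change threshold. Pparg was at 3.11 ± 1.18 CPM in CON and 1.77 ± 0.74 CPM in MAL-BG (-0.81, adjusted p = 0.0551) and fell by 1.199 against MAL (adjusted p = 0.00511).

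Foxo1, a transcription factor active when insulin is low, rose by 0.79 (SE 0.14, adjusted p = 0.000438), while Foxo3 fell by 1.57 (SE 0.31, adjusted p = 0.000777), and in each gene all MAL-BG libraries lay on the same side of all CON libraries. Prkaa2, a catalytic subunit of AMP-activated kinase, fell by 2.09 (adjusted p = 0.00257), and Mlycd, which degrades the Cpt1a inhibitor malonyl-CoA, rose by 0.64 (adjusted p = 0.0014). Of 8 other PPAR target genes that were tested, 0 were DEGs higher and 3 lower against CON (11.4% and 21.7% of all genes). Ucp2, a mitochondrial carrier abundant in myeloid cells, fell by 1.13 (SE 0.25, adjusted p = 0.00164), from 942 ± 193 to 429.8 ± 182.4 CPM. The acyl-CoA thioesterases Acot1 and Acot2 fell by 1.06 and 0.82. Acot1 and Acot2 are close copies of each other, so their counts may not be fully separate.

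**Figure D5:**
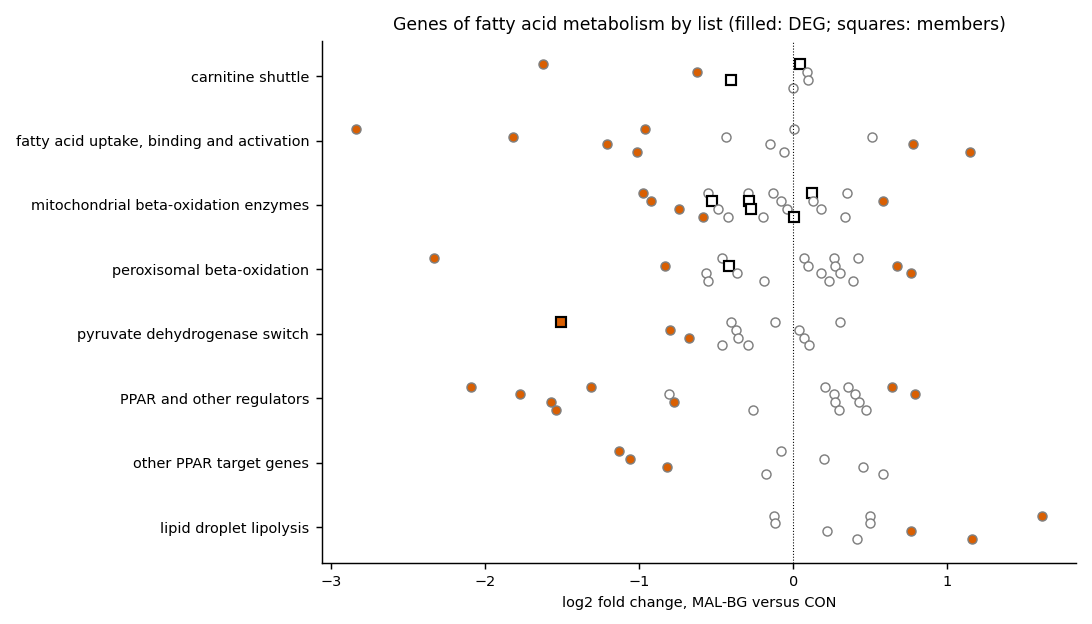
Log2 fold change in MAL-BG versus CON of the 108 tested genes of fatty acid metabolism, by list, with filled symbols for DEGs and squares for the 9 members. Pdk4 at -1.51 is the only filled square, and the filled symbols of the lipid droplet list all lie to the right of 0.

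For each member, the gene outside the set that varied most like it was found from log2 CPM with the group means subtracted (16 libraries), as a description with no test. For Hadha it was Lonp2, the Lon protease of peroxisomes (Pearson r = 0.96, Spearman's rho 0.89), which was at 53.7 to 72.3 CPM in CON, at 56.6 to 71.9 CPM in MAL, and at 64.8, 38.5, 44.5, 44.4, 65.7, 67.9, and 44.7 CPM in MAL-BG, low in the same 4 libraries as Hadha. For Ehhadh it was Nkiras2, an inhibitor of NF-kappaB signaling (r = 0.92), at 33.0, 16.7, 18.4, 20.7, 37.9, 30.2, and 19.3 CPM in the MAL-BG libraries, with replicates 2, 3, 4, and 7 lowest. Lonp2 and Nkiras2 were picked for their likeness over these same libraries. Their low values in replicates 2, 3, 4, and 7 follow from that choice and are no separate evidence of the pattern. The partners of the others were Endod1 for Cpt1a (0.94), Ptgds for Cpt2 (0.96), Sdhaf4 for Acadm (0.88), Cfap36 for Acadl (0.97), Arl6ip1 for Acadvl (0.96), Pdcd6 for Hadhb (0.94), and Olfml1 for Pdk4 (0.97). Ptgds, a prostaglandin synthase made by the choroid plexus and meninges, was at 264 ± 119 CPM in CON and 82.2 ± 35.7 CPM in MAL-BG.

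Among the members themselves, the highest r were 0.91 for Cpt2 and Hadhb, 0.89 for Cpt2 and Acadvl, and 0.84 for Cpt2 and Pdk4. Apart from each other, Hadha and Ehhadh had their highest r with Acadl (0.39 and 0.20). Among the other 7 members every r was positive, from 0.30 for Cpt1a and Acadm to 0.91.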

How the data were processed

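The authors aligned paired reads to the mouse genome (GRCm38) with STAR and deposited raw gene counts from HTSeq. The strand setting and annotation of the counting are not given in the sources used here. Column names give the group and a running number that matches no sample title, so replicate numbers only name a library. The study's code holds a batch term, which could not be fitted, since the batch of each column is not known here.

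Genes above 10 counts in 4 or more libraries were tested in edgeR 4.0.16 (R 4.3.3) by quasi-likelihood, using TMM scaling, 1 fit over the 3 groups, and Benjamini-Hochberg adjustment within each comparison over all genes. The same fit gave SE and 95% intervals, and log2 CPM used a prior count of 2. P-values measure the spread between libraries, 1 per mouse. Mice shared cages, and the cage of each library is not known here, so a spread between cages could not be separated. Within groups, all library pairs differed by more than counting noise. Coordinates and mRNA lengths came from GENCODE vM21.

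The 9 genes and all lists were chosen with earlier results of these data known. Other genes named were the carnitine shuttle genes, the Pdk and PPAR genes, Acads, Hadh, Acaa2, and Hsd17b4, up to 3 genes per list and direction with the largest change among DEGs of both MAL-BG comparisons, the gene most like each member, and the most abundant marker of a list; some genes under this rule are not reported here. Steps were tested on simulated data. Alternatives were other scalings, DESeq2 1.42.0, other filters, fits of the compared groups alone, thinned libraries, no fold change threshold, and each library left out.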

Additional observations from a re-analysis of the deposited data

Results flagged for a closer look

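Of 30 sets of libraries of a group, the values of the 9 members and the Hadha to Hadhb ratio, 1 held a library far from the others by Dixon's criterion. Cpt1a in CON replicate 1 was at 75.6 CPM, while the other 3 CON libraries lay between 108 and 111 CPM. Chance marks about 1 in 20 such sets. CON replicate 1 was the lowest CON library for all 9 members. It also had the highest microglia sum (27499 CPM) and the lowest choroid plexus sum (10810 CPM) of CON. The part of this make-up in its Cpt1a level was not tested.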

How the results depend on the processing

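The DEG count of the members in MAL-BG versus CON was 1, and became 2 with no scaling factor or with no fold change threshold, and 9 with scaling by the microglia markers, and ran from 0 to 2 with each library left out in turn. In MAL-BG versus MAL it was 0, and became 7 with scaling by the microglia markers, 1 without MAL-BG replicates 3 and 5 (added after the data were seen), and 0 to 1 with each library left out. DEGs of the pathway lists numbered 35 against CON and became 74 with scaling by the microglia markers (26 to 46 with each library left out). Against MAL they numbered 31 and became 69 with that scaling and 47 with no fold change threshold (20 to 37, with 20 without MAL replicate 2 and 20 without MAL replicate 3). With scaling by the microglia markers, 9026 of all 14565 genes were DEGs lower against CON and 8058 against MAL. In MAL versus CON, 0 members and 0 pathway genes were DEGs under every alternative run. The Hadha to Hadhb ratio per kilobase had means of 2.29 (CON), 2.20 (MAL), and 1.46 (MAL-BG), a change of scale alone.

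Sign changes concerned values near 0 or other scalings. With scaling by the microglia markers, the log2 fold change was -0.79 for Cpt2, -0.82 for Acadm, and -0.72 for Hadhb against CON, and -0.53, -0.64, and -0.52 against MAL. With no scaling factor it was -0.09 for Cpt2, -0.12 for Acadm, and -0.016 for Hadhb against CON and -0.053 for Acadm against MAL. With scaling by the mean log2 CPM, Acadl was at 0.026 and 0.13 and Acadvl at 0.002 and 0.10 against CON and MAL, and in MAL versus CON Cpt1a was at 0.014 and Ehhadh at 0.019. Acadm against CON was at -0.01 with the upper quartile, -0.006 with at least 1 CPM in 4 libraries, -0.007 with only the compared groups, and -0.03 without MAL-BG replicates 3 and 5. With only the compared groups, MAL versus CON was 0.008 for Cpt1a and 0.009 for Ehhadh. With each library left out, signs turned in MAL-BG versus CON for Cpt2 (-0.083 to 0.18), Acadm (-0.039 to 0.11), and Hadhb (-0.052 to 0.27), and in MAL versus CON for Cpt1a (-0.13 to 0.096), Acadl (-0.29 to 0.003), Hadhb (-0.27 to 0.057), and Ehhadh (-0.057 to 0.064). A scaling factor shifts all genes of a library together, and subtracting the median removes most of that shift by construction. Relative to the median of all genes, no member changed sign against CON over the 6 scalings. That difference was 0.067 to 0.093 for Cpt2, 0.036 to 0.049 for Acadm, and 0.143 to 0.174 for Hadhb. It was -0.268 to -0.223 for Acadl and -0.252 to -0.246 for Acadvl. Over all genes, the median against CON moved to -0.86 (microglia markers), -0.17 (no scaling factor), and 0.25 (mean log2 CPM). The causes of the sign changes were not tested.

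No paired analysis was possible because the running numbers of the columns tie to no sample title, animal, or batch. Groups of 4 to 7 libraries, the wide spread of Pdk4 and Hadha within groups, and the low counts of Ehhadh and Pdk4 limit the precision of these differences.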
